A study of Mus musculus with 2 samples.

Results

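Radial glial cells (RGCs) that carried no transcript of the cycle genes *Mki67*, *Top2a* and *Cenpf* were described in the embryonic mouse cerebral cortex at day (E) 16.5 of development. They numbered 171 of the 16213 cell barcodes that passed the limits on depth and mitochondrial content. A barcode was taken as such a cell when it had at least 3 of the 7 markers *Pax6*, *Hes5*, *Sox2*, *Slc1a3*, *Mfge8*, *Ttyh1* and *Aldoc*, with *Pax6* among them, and no transcript of the 6 genes *Eomes*, *Gad1*, *Gad2*, *Dlx1*, *Dlx2* and *Olig1*. Measured transcripts of these 16 genes therefore chose the cells, and the levels of these genes are given only as a description. The cells are called marker-negative RGCs here, because the rule looks at no cycle genes beyond *Mki67*, *Top2a* and *Cenpf*. RGCs of the same rule with at least 1 transcript of *Mki67*, *Top2a* or *Cenpf* are called marker-positive RGCs.

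The series holds 2 single-cell RNA-sequencing libraries, both from wild-type (WT) control embryos of the mouse line that the labels call EomesDot, which the series title describes as an *Eomes-Cre* line. Both libraries share genotype, tissue and age, and no treatment or mutant is part of the comparison. How many embryos went into each library is not given in the sources used here. The p-values measure only how far differences between classes varied over these 2 libraries, in a fit of all classes. A difference that all classes of a library share is removed in that fit. The spread between embryos cannot be told from these p-values. The study asked how signals from somatostatin-expressing cortical interneurons (cINs) reach cortical progenitors, with the Eph receptor *Epha4*, the ephrin *Efnb2* and the adhesion molecule *Nlgn1* among the genes it followed.

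RGCs are the neural stem cells of the developing cortex. Their cell bodies line the ventricle and their long processes span the cortical wall and guide migrating neurons. They divide to renew themselves and to give rise to intermediate progenitor cells (IPCs), which carry the transcription factor *Eomes* and produce excitatory neurons, and late in embryonic development some of them turn to making glia.

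Replicate 1 held 46398156 unique molecular identifiers (UMIs, 1 for each captured RNA molecule) in 9049 barcodes, and replicate 2 held 64324236 UMIs in 13556 barcodes. Of these, 5966 and 10247 barcodes passed the limits of 1500 to 60000 UMIs and under 10% mitochondrial UMIs. The libraries shared 40 barcode sequences. The libraries stood apart in *Ttr*, the transthyretin gene of the choroid plexus, which had a UMI in 0% of the marker-negative RGCs of replicate 1 and in 20.3% of those of replicate 2, and in 16.8% to 21.6% of the marker-positive RGCs, IPCs, excitatory neurons and erythroid barcodes of replicate 2.

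The marker-negative RGCs made up 53 of 5966 barcodes in replicate 1 (0.888%, exact 95% interval 0.666 to 1.16) and 118 of 10247 in replicate 2 (1.15%, 0.954 to 1.38). The mean share was 1.02% ± 0.186 (SD, n = 2). These intervals cover counting error only. The cells were deeper in replicate 1, with a median of 8621 UMIs and 3242 genes, than in replicate 2, with 4828 UMIs and 2355 genes. The single cells ranged from 1531 to 15356 UMIs in replicate 1 and from 1896 to 23653 in replicate 2. Marker-positive RGCs numbered 115 and 161, with medians of 10518 and 7065 UMIs, so they were the deeper class in each library.

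The 7 markers of the rule were all found among the marker-negative RGCs, each in a different share of cells. *Slc1a3*, the glial glutamate transporter GLAST, had a UMI in 94.3% and 92.4% of the cells of replicates 1 and 2, and *Mfge8*, a secreted glycoprotein, in 86.8% and 74.6%. *Aldoc*, a glycolytic enzyme, was found in 77.4% and 69.5%, *Ttyh1* in 75.5% and 66.1%, the stem cell factor *Sox2* in 77.4% and 52.5%, and the Notch effector *Hes5* in 50.9% and 46.6%. All 7 markers were present in 19 of 53 cells (35.8%) and in 17 of 118 cells (14.4%). The cells with all 7 were also the deeper ones, with a median of 9309 UMIs in replicate 2 against 3079 UMIs in the 22 cells with 4 markers.

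RGC genes that the rule did not use were also detected, each in a different share of the cells. *Fabp7*, the brain lipid-binding protein of RGCs, stood at 11966 and 12053 UMIs per 1000000 of the class (CPM), with a UMI in 100% and 97.5% of cells. *Vim*, an intermediate filament of the radial process, stood at 1858 and 1522 CPM and was found in 86.8% and 87.3%, *Nes* at 128 and 116 CPM in 56.6% and 42.4%, the transcription factor *Sox9* at 246 and 193 CPM in 73.6% and 55.9%, and the receptor *Notch1* at 119 and 139 CPM in 56.6% and 51.7%. Erythroid barcodes, in which at least 20% of UMIs came from globin genes, served as a reference for free RNA, with medians of 2825 and 3215 UMIs. Calculated for 1500 UMIs drawn from each cell, so that depth was equal, *Vim* was found in 73.8% and 72.4% of the marker-negative RGCs and in 9.2% and 8.5% of the erythroid barcodes, and *Sox9* in 26.9% and 23.7% against 0.4% and 0.1%. *Fabp7* was itself common in the free RNA, with 91.9% in each library of RGCs against 44.8% and 61.0% of erythroid barcodes.

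**Figure D1:**
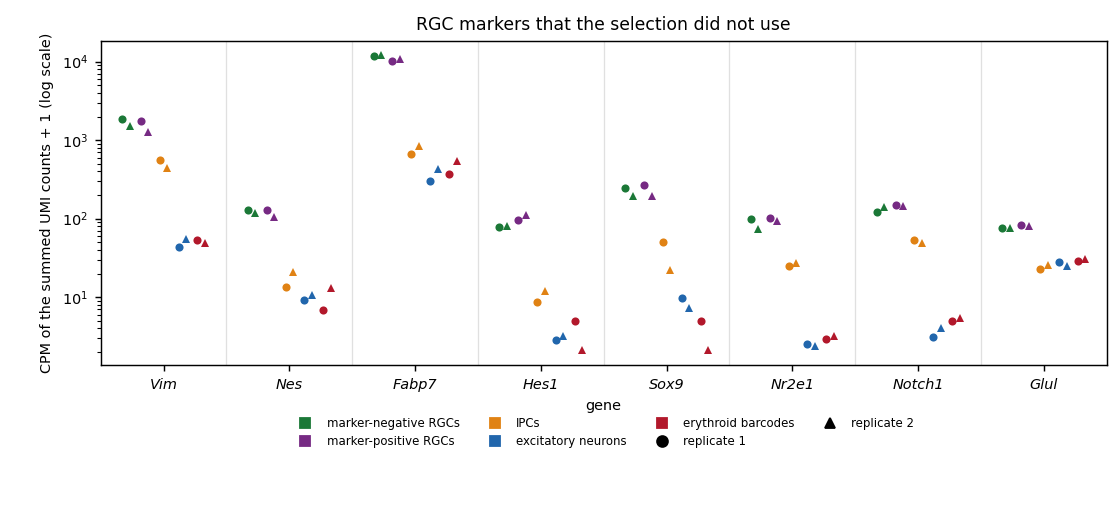
Level of RGC marker genes in 5 classes of barcodes, as CPM plus 1 on a log axis, with a circle for replicate 1 and a triangle for replicate 2 of each class. *Vim* in marker-negative RGCs sits at 1858 and 1522 CPM against 42.0 and 54.4 CPM in excitatory neurons.

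Markers of other cell types were mostly rare. The oligodendrocyte genes *Sox10* (1.89% and 0%), *Pdgfra* (0% and 0.847%) and *Olig2* (3.77% and 2.54%), the endothelial gene *Pecam1* (0% and 0.847%) and the microglial gene *C1qa* (0% and 1.69%) were near 0, and the Cajal-Retzius genes *Trp73* and *Lhx1*, the pericyte gene *Kcnj8* and the ventral factor *Nkx2-1* had no UMI. A count of 0 allows up to 3 UMIs in each library, or 6.76 and 4.13 CPM. The astrocyte enzyme *Aldh1l1* was found in 49.1% and 38.1% of the cells, whereas the later astrocyte markers *Aqp4* (0% and 6.78%), *Gfap* (1.89% and 4.24%) and *S100b* (5.66% and 0.847%) were sparse. *Pdgfrb*, listed as a mural marker, was found in 15.1% and 18.6%, above the 0.6% of excitatory neurons in each library, and in 13.0% and 12.4% of marker-positive RGCs, while the other mural genes *Rgs5* (1.89% and 0.847%) and *Kcnj8* (0%) were near or at 0. The erythroid globin *Hbb-bs* was found in 92.5% and 98.3%, beside 86.6% to 97.0% of marker-positive RGCs, IPCs and excitatory neurons.

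Transcripts of excitatory neurons were detected in part of the marker-negative RGCs, and their share depended on how many RGC markers a cell had. At least 2 of the 4 neuronal factors *Neurod2*, *Neurod6*, *Tbr1* and *Bcl11b* were present in 7 of 53 cells (13.2%) and in 21 of 118 cells (17.8%). Among the cells with 3 markers, just inside the rule, this held for 37.5% of 8 cells and 52.4% of 21 cells, and among the cells with all 7 markers for 5.26% and 5.88%. Just outside the rule, the *Pax6*-positive barcodes with 2 markers numbered 27 and 54, and 74.1% and 75.9% of them had at least 2 neuronal factors, with *Vim* in 33.3% and 35.2% and *Sox9* in 11.1% and 5.56%. In replicate 2, the 21 cells with neuronal factors had a median of 4 *Fabp7* UMIs against 48 in the remaining cells, and *Vim* in 52.4% against 94.9%. In replicate 1, the 7 such cells had a median of 23 *Fabp7* UMIs against 53, and *Vim* in 85.7% against 87.0%. The cells with 3 markers had *Vim* in 50% and 52.4% and *Sox9* in 12.5% and 23.8%.

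Of these neuronal transcripts, some were near or below the level of the free RNA. For 1500 UMIs drawn from each cell, the tubulin *Tubb3* was found in 28.3% and 30.8% of the marker-negative RGCs against 34.6% and 35.9% of the erythroid barcodes, and *Neurod6* in 11.6% and 16.1% against 12.6% and 12.7%. *Tbr1*, a factor of deep layer neurons, was found in 1.59% and 4.40% against 1.81% and 3.34%, and *Bcl11b* in 4.24% and 5.40% against 6.11% and 7.79%. Doublet scores marked 4 cells in replicate 1 and 8 in replicate 2. *Neurod2* or *Neurod6* was found in 16 cells of replicate 1 and 44 of replicate 2, and the comparison with marker-positive RGCs below was also made without such cells.

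**Figure D2:**
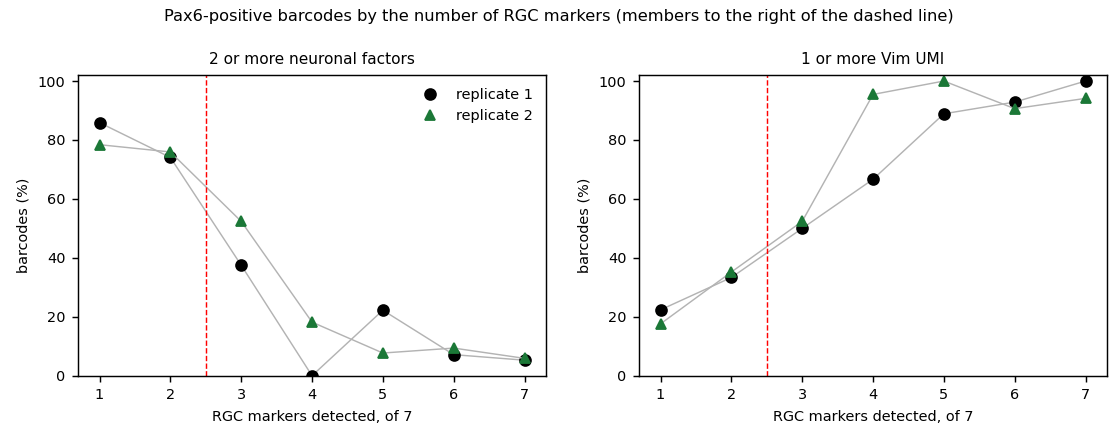
Share of *Pax6*-positive barcodes without the excluded genes, in percent, that had at least 2 of 4 neuronal factors or that had *Vim*, plotted by the number of RGC markers detected (1 to 7) for each replicate, with the dashed line at the limit of the rule. The share with neuronal factors is 74.1% and 75.9% at 2 markers and 5.26% and 5.88% at 7 markers.

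The absence of *Mki67*, *Top2a* and *Cenpf* left S phase genes detectable, so the rule alone does not show that the cells were non-cycling. The 21 S phase genes together stood at 1048 and 805 CPM in marker-negative RGCs, at 2228 and 1790 CPM in marker-positive RGCs, at 449 and 538 CPM in IPCs that lacked the same 3 cycle genes, and at 307 and 338 CPM in excitatory neurons. At least 3 of these genes were detected in 33 of 53 cells (62.3%) and in 55 of 118 cells (46.6%), and none in 4 and 14 cells. Detection alone did not set these cells apart, since at least 3 were also detected in 31.9% and 27.4% of excitatory neurons, which have left the cell cycle. With each cell thinned to 1500 UMIs, at least 3 were detected in 24.5% and 15.3% of marker-negative RGCs, in 4.02% and 5.86% of IPCs, in 0.981% and 1.05% of excitatory neurons and in 1.42% and 0.873% of erythroid barcodes. The marker-negative RGCs thus lay between the marker-positive RGCs and the IPCs in each library. The 18 genes of G2 and mitosis summed to 701 and 850 CPM, of which 609 and 663 CPM were *Hmgb2*, a chromatin protein that is not limited to mitosis, against 7921 and 7280 CPM in marker-positive RGCs.

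**Figure D3:**
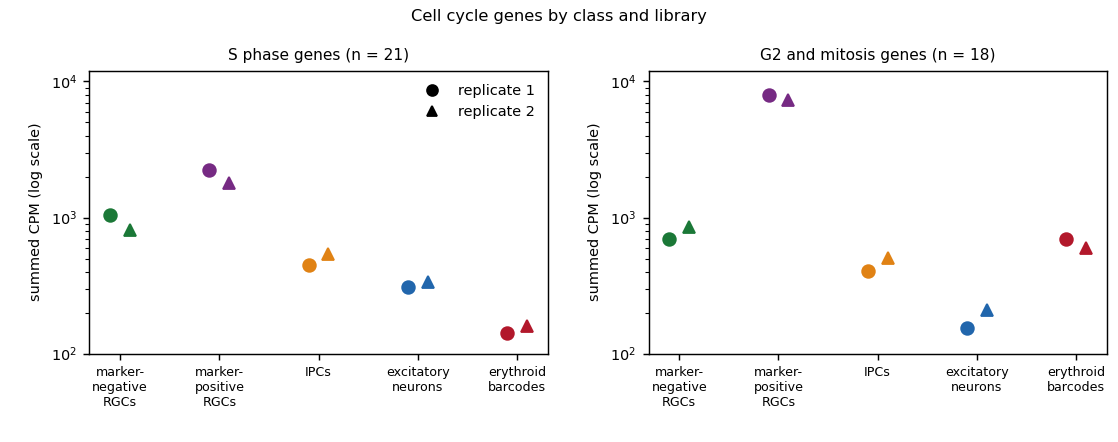
Summed level of the S phase and the G2 and mitosis gene lists in CPM on a log axis for 5 classes of barcodes, with a circle for replicate 1 and a triangle for replicate 2. The marker-negative RGCs, at 1048 and 805 CPM for S phase, sit below the marker-positive RGCs, at 2228 and 1790 CPM, and above the IPCs, at 449 and 538 CPM.

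To find which other genes differed with the cycle markers, the UMIs of the marker-negative RGCs were summed within each library and compared with those of the marker-positive RGCs by the quasi-likelihood test of edgeR, with a block for library and Benjamini-Hochberg adjustment over all genes tested. Of 16 genes that mature astroglia use, 5 were higher in the marker-negative RGCs by edgeR and 4 by DESeq2, *Slc1a2* among them, and so were several receptors and adhesion molecules including *Nlgn1*. They had lower levels of cell cycle genes. Of 14672 genes tested, 348 (2.37%) were called higher and 614 (4.18%) lower at an adjusted p under 0.05, and the median log2 fold change of all genes was 0.01. Because the classes were defined by transcripts of single cells, these calls give the size of differences and their repeatability over 2 libraries. The cell cycle genes follow from the definition and are given as a description. With each cell thinned to 1500 UMIs before the rules were applied, which makes the depths equal and leaves fewer counts, 59 genes were called.

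Most RGC identity genes did not pass the test between these classes. Of the 25 genes of the scaffold and identity list, 1 was higher and 2 were lower, with a median log2 fold change of -0.14. *Vim* stood at 1858 and 1522 CPM against 1730 and 1276 CPM (log2 fold change 0.13, SE 0.15, adjusted p = 0.755) and *Sox9* at 246 and 193 CPM against 270 and 196 CPM (-0.11, SE 0.15, adjusted p = 0.789). *Ednrb*, an endothelin receptor of glia, was higher at 223 and 175 CPM against 136 and 136 CPM (0.47, SE 0.16, adjusted p = 0.0475), a call that was not made by DESeq2 (adjusted p = 0.193), without the library block (adjusted p = 0.0963), without doublets (adjusted p = 0.134) or without the *Neurod2*- or *Neurod6*-positive cells (adjusted p = 0.0814). *Gas1*, a membrane protein that binds Hedgehog ligands, was lower at 169 and 157 CPM against 301 and 275 CPM (-0.87, SE 0.15, adjusted p = 4.42e-07). *Psat1*, an enzyme of serine synthesis, was lower at 106 and 112 CPM against 193 and 144 CPM (-0.64, SE 0.17, adjusted p = 0.00646). The *Psat1* call was lost without the *Neurod2*- or *Neurod6*-positive cells (-0.46, adjusted p = 0.172) and with at least 4 markers (-0.48, adjusted p = 0.1002). None of the 10 tested genes of the outer RGC list was called by edgeR or DESeq2, with 4 at an unadjusted edgeR p under 0.05. Among them was the matrix protein *Tnc* at 1057 and 1029 CPM against 833 and 724 CPM (0.38, SE 0.13, adjusted p = 0.0515), which was called higher in 5 alternatives, with adjusted p between 0.000363 and 0.0419. With at least 4 RGC markers 3 of the 10 were called higher, namely *Acsbg1*, *Ptprz1* (adjusted p = 0.00942) and *Tnc* (adjusted p = 0.00402), and *Ptprz1* was also called in 2 fits with fewer classes (adjusted p = 0.000225 and 0.0162).

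Of 16 astroglial maturation genes tested, 5 were higher in the marker-negative RGCs and none lower, and the median log2 fold change of the list was 0.37 against 0.01 for all genes. *Apoe*, the lipid carrier that astrocytes secrete, stood at 679 and 711 CPM against 339 and 359 CPM (log2 fold change 0.93, SE 0.13, adjusted p = 6.49e-11). Both libraries of marker-negative RGCs lay above both of marker-positive RGCs. DESeq2 did not call *Apoe* (adjusted p = 0.124). *Slc1a2*, the second glial glutamate transporter, stood at 128 and 138 CPM against 68.2 and 65.8 CPM (0.96, SE 0.19, adjusted p = 2.93e-05), and *Sparcl1*, a secreted protein of astrocytes, at 126 and 117 CPM against 50.7 and 66.6 CPM (0.98, SE 0.20, adjusted p = 4.81e-05). *Clu*, which encodes clusterin, stood at 151 and 120 CPM against 92.8 and 62.8 CPM (0.77, SE 0.19, adjusted p = 0.00218), and *Mlc1*, a membrane protein of astrocyte endfeet, at 117 and 121 CPM against 76.1 and 72.6 CPM (0.63, SE 0.21, adjusted p = 0.0426). In each of these the 2 classes did not overlap. The share of all tested genes without overlap was not counted, so this adds no support to the calls. The same 5 genes were called without the *Neurod2*- or *Neurod6*-positive RGCs, and all but *Mlc1* without doublets and with at least 3000 UMIs. With thinned cells 8 genes of the list were tested and none was called. The log2 fold change was then 0.57 for *Apoe* (adjusted p = 0.812), 0.17 for *Slc1a2* (adjusted p = 1) and 2.075 for *Sparcl1* (adjusted p = 0.103). *Aldh1l1*, at 94.7 and 123 CPM against 81.7 and 69.6 CPM, did not pass (0.51, SE 0.21, adjusted p = 0.160).

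**Figure D4:**
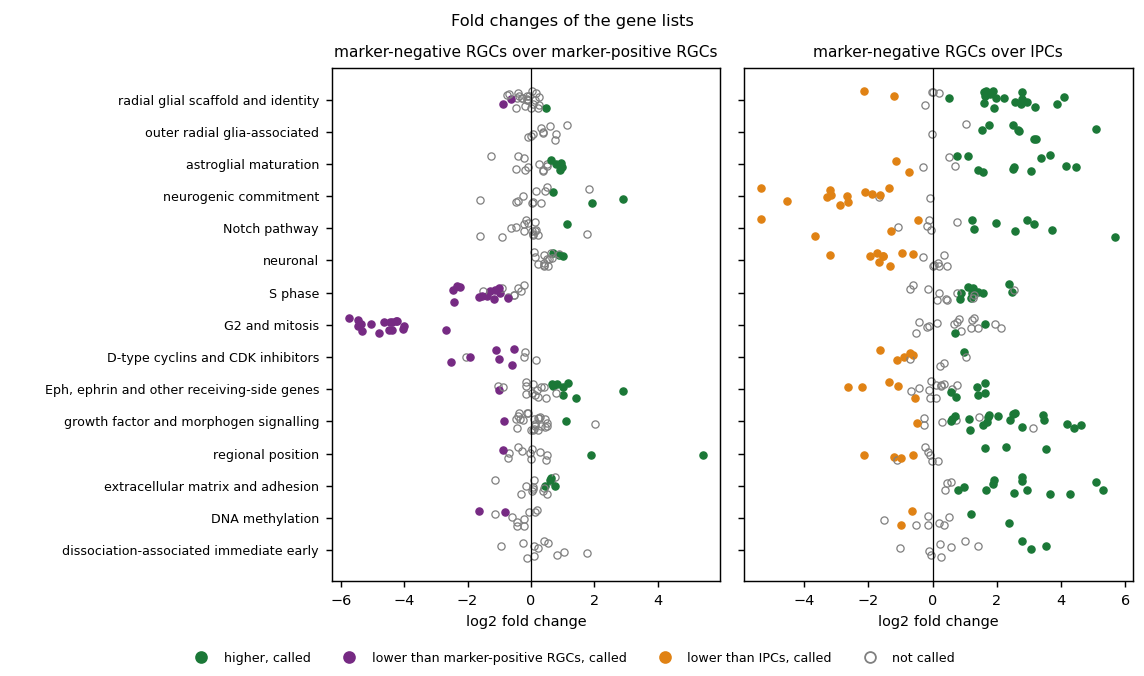
Log2 fold change of each tested gene of 15 gene lists, marker-negative RGCs against marker-positive RGCs on the left and against IPCs on the right, with filled points for called genes and open points for genes not called. Genes with no UMI in one class are left out (1 each in neurogenic commitment, G2 and mitosis, and regional position). The 5 called astroglial genes lie between 0.63 and 0.98 on the left.

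Genes of the receiving side of cell contact signals, namely Eph receptors, ephrins, neuroligins and related receptors, were called higher in 8 of 23 cases and lower in 1. *Nlgn1*, a postsynaptic adhesion molecule that binds neurexins, stood at 1127 and 1270 CPM against 696 and 776 CPM (log2 fold change 0.66, SE 0.16, adjusted p = 0.00186). *Ephb1*, a receptor of B-type ephrins, stood at 158 and 78.5 CPM against 43.6 and 37.1 CPM (1.43, SE 0.23, adjusted p = 2.25e-08). *Robo2*, a Slit receptor, stood at 606 and 697 CPM against 295 and 426 CPM (0.82, SE 0.19, adjusted p = 0.000428). Without the *Neurod2*- or *Neurod6*-positive RGCs, 6 genes of the list were called higher, these 3 genes, *Epha3* and *Nrxn2* among them, and none lower. *Epha7*, at 63.1 and 77.2 CPM against 36.5 and 26.5 CPM (1.16, SE 0.26, adjusted p = 0.00044), was not called without those cells (0.53, adjusted p = 0.572). *Egfr*, the epidermal growth factor receptor, was lower at 20.3 and 33.1 CPM against 32.5 and 72.6 CPM (-1.003, SE 0.33, adjusted p = 0.0353), with overlapping libraries. *Epha4* and *Efnb2* are described across all classes below.

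The calls of the neuronal and neurogenic lists depended on which cells were kept and on the fit. Of 16 neuronal genes tested, 3 were higher, *Dcx* and *Neurod6* among them, and of 15 neurogenic genes *Sstr2*, *Neurod1* and *Elavl2*, the last not without the *Neurod2*- or *Neurod6*-positive RGCs (adjusted p = 0.745). *Elavl2* and *Neurod6* were also not called by DESeq2 (adjusted p = 0.247 and 0.241) or without the library block (adjusted p = 0.0798 and 0.0859). *Dcx*, a microtubule-associated protein of migrating neurons, stood at 126 and 169 CPM against 70.6 and 89.3 CPM (log2 fold change 0.88, SE 0.22, adjusted p = 0.0018). Without the *Neurod2*- or *Neurod6*-positive RGCs *Dcx* was not called, though its log2 fold change was still 0.79 (adjusted p = 0.39). In that setting 1 of the 14 remaining genes of the neuronal list was called. Without doublets 10 of the 16 were called higher, and the median log2 fold change of the list was 1.25 against 0.52 with them. *Neurod1* turned from 1.94 to -1.70 with at least 4 markers required, where it was not called (adjusted p = 0.415). *Sstr2*, a somatostatin receptor, stood at 20.3 and 16.5 CPM against 0.793 and 3.78 CPM (2.89, SE 0.62, adjusted p = 0.000155). It rested on 5 of 53 and 9 of 118 cells with 9 and 12 UMIs, and lost its call without the *Neurod2*- or *Neurod6*-positive cells (adjusted p = 0.836). The neuronal list summed to 2453 and 2987 CPM in marker-negative RGCs, to 1651 and 2129 CPM in marker-positive RGCs and to 1527 and 1898 CPM in erythroid barcodes.

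Among the genes of cell cycle entry and DNA replication, 13 of 21 S phase genes, all 18 G2 and mitosis genes and 6 of 10 D-type cyclin and CDK inhibitor genes were lower in the marker-negative RGCs. *Pcna*, the replication clamp, stood at 117 and 97.8 CPM against 283 and 220 CPM (log2 fold change -1.29, SE 0.17), and *Cdk1*, the mitotic kinase, at 15.8 and 19.3 CPM against 253 and 303 CPM (-4.04, SE 0.24). The replication helicase genes *Mcm3*, at 81.2 and 49.6 CPM against 95.9 and 77.9 CPM, and *Mcm6*, at 78.9 and 59.2 CPM against 115 and 76.4 CPM, did not pass the test (adjusted p = 0.213 and 0.121). *Ccnd2* (437 and 382 CPM against 687 and 509 CPM, -0.60) and *Ccnd1* (27.1 and 44.1 CPM against 61.0 and 80.2 CPM, -0.99), the D-type cyclins of progenitors, were lower, the latter not without the *Neurod2*- or *Neurod6*-positive RGCs (adjusted p = 0.127), and *Cdkn2d*, an inhibitor of their kinases, was lower as well at 15.8 and 17.9 CPM against 92.0 and 99.1 CPM (-2.52, SE 0.30). *Dnmt1*, the maintenance DNA methyltransferase, stood at 47.3 and 42.7 CPM against 81.7 and 71.9 CPM (-0.83, SE 0.24, adjusted p = 0.014), and its partner *Uhrf1*, itself on the S phase list, at 20.3 and 26.2 CPM against 76.9 and 68.8 CPM (-1.65, SE 0.33, adjusted p = 3.6e-05). These were the lower genes of the 11 DNA methylation genes, and *Dnmt1* was not called without the filter on low counts (adjusted p = 0.053).

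The 8 lower genes with the largest fold changes had no UMI in the marker-negative RGCs of either library, so bounds are given in place of folds, against 3 counts in each library. The mitotic regulator *Pimreg* was at least 14.5-fold lower in replicate 1 and at least 30.6-fold lower in replicate 2. The mitotic kinase *Aurkb* was at least 16.3-fold and 23.1-fold lower, and *Foxm1*, the transcription factor of G2 genes, at least 4.69-fold and 8.24-fold. The others were *Mxd3*, *Ska1*, *Rtkn2*, *Kif20a* and *Depdc1b*, with bounds from 5.63-fold to 12.1-fold.

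Several of the higher genes with the largest fold changes came from very few cells. *Lyrm7*, a mitochondrial assembly factor, stood at 13.5 and 38.6 CPM against 3.96 and 3.03 CPM, and 23 of its 28 UMIs in replicate 2 lay in 1 cell. It was not called without the *Neurod2*- or *Neurod6*-positive RGCs (adjusted p = 0.658). Likewise, 31 of 37 *Grk4* UMIs, 47 of 76 *Slit3* UMIs and 49 of 66 *Cntn5* UMIs of replicate 2 lay in 1 cell each. *Prox1*, a transcription factor of the dentate gyrus lineage among others, stood at 40.6 and 26.2 CPM against 7.14 and 4.54 CPM and was found in 3 and 7 cells. *Pla2g7*, a phospholipase, was spread more widely, at 20.3 and 49.6 CPM against 6.34 and 5.30 CPM in 5 and 17 cells. *Nap1l5* stood at 27.1 and 19.3 CPM against 5.55 and 2.27 CPM. *Thrb*, a thyroid hormone receptor, stood at 29.3 and 12.4 CPM against 5.55 and 0.756 CPM, and turned to -0.87 on the log2 scale with thinned cells, where it was not called (adjusted p = 0.957). *Thrb* was also not called by DESeq2 (adjusted p = 0.118) or with at least 4 markers (adjusted p = 0.112), *Prox1* not with at least 4 markers (adjusted p = 0.115), and *Slit3* neither by DESeq2 (adjusted p = 0.0844) nor with thinned cells (adjusted p = 0.909).

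Of 14 regional genes tested, 2 were higher and 2 lower. *Rspo3*, a secreted Wnt agonist of the cortical hem, stood at 29.3 and 51.0 CPM against 15.9 and 6.81 CPM (log2 fold change 1.88, SE 0.36, adjusted p = 9.77e-06) and was found in 4 and 7 cells, with 20 of the 37 UMIs of replicate 2 in 1 cell. *Rspo2*, of the same family, had 1 UMI in replicate 1 and 23 in replicate 2, of which 18 lay in 1 cell. *Dmrta2*, a patterning factor of the dorsal cortex, was lower at 24.8 and 33.1 CPM against 61.0 and 45.4 CPM (-0.88, SE 0.29, adjusted p = 0.0405), a call that was lost in 8 alternatives, among them DESeq2 (adjusted p = 0.0873) and the fit without the library block (adjusted p = 0.0832). *Lmo2* had no UMI in marker-negative RGCs and 1 and 19 UMIs in marker-positive RGCs, and its call as lower was lost in 4 alternatives, among them the fits without the library block (adjusted p = 0.0904) and without doublets (adjusted p = 0.763).

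Of 17 Notch pathway genes tested, *Dner*, a membrane protein that can bind Notch, was higher at 83.4 and 95.1 CPM against 38.1 and 42.4 CPM (log2 fold change 1.12, SE 0.23, adjusted p = 8.4e-05). *Notch2* stood at 239 and 236 CPM against 258 and 230 CPM and did not pass the test (-0.08, SE 0.14, adjusted p = 0.853). Of 16 matrix and adhesion genes, 4 were higher, namely *Ncan*, *Cspg5*, *Sparc* and *Jam3*. The proteoglycan *Ncan* stood at 250 and 219 CPM against 146 and 147 CPM (0.62, SE 0.16, adjusted p = 0.00268), a call that ended without the *Neurod2*- or *Neurod6*-positive RGCs (adjusted p = 0.0809), and those of *Cspg5*, *Sparc* and *Jam3* ended without the library block (adjusted p = 0.0522, 0.0763 and 0.0698). *Sparc* and *Jam3* were also not called by DESeq2 (adjusted p = 0.099 and 0.388). Of 26 growth factor and morphogen genes, *Wnt7b* was higher and *Etv5*, a target of FGF signalling, lower. Neither was called without the *Neurod2*- or *Neurod6*-positive RGCs, at log2 fold changes of 1.30 and -0.90 (adjusted p = 0.0876 and 0.0822). None of the 11 immediate early genes, which respond to dissociation, was called by edgeR or DESeq2, with 3 at an unadjusted edgeR p under 0.05. Among them *Fosb* stood at 47.3 and 9.64 CPM against 6.34 and 7.56 CPM (adjusted p = 0.0533). *Fos* and *Fosb* were called higher with at least 4 RGC markers and with at least 3000 UMIs per cell, *Fos* also without the *Neurod2*- or *Neurod6*-positive RGCs, and *Jund* in 2 fits with fewer classes (adjusted p = 0.0184 and 0.0425).

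Marker-negative RGCs were next compared with IPCs, their progeny, of which 224 and 307 had at least 2 *Eomes* UMIs and none of the 3 cycle genes. Most RGC scaffold, matrix and growth factor pathway genes were higher in the RGCs, and most neurogenic genes were lower. The RGCs were chosen by RGC markers and the absence of *Eomes*, and the IPCs by its presence. Differences in genes that go along with these markers therefore follow in part from the definition, and the list counts describe the classes. Of the 16 neuronal genes 9 were lower, none was higher and 7 did not pass the test, with a median log2 fold change of -0.78. Without the *Neurod2*- or *Neurod6*-positive RGCs, 12 of the 14 remaining neuronal genes were lower. Of 14672 genes, 1481 (10.1%) were called higher and 1364 (9.3%) lower, with a median log2 fold change of -0.04.

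The RGC scaffold list had 19 of 25 genes higher and 2 lower, with a median log2 fold change of 1.80. *Fabp7* stood at 11966 and 12053 CPM against 668 and 852 CPM in IPCs (3.88, SE 0.24, adjusted p = 4.18e-55), with the IPC values not far above the 372 and 544 CPM of erythroid barcodes. *Hes1*, a Notch effector that keeps progenitors undifferentiated, stood at 76.6 and 79.9 CPM against 7.55 and 11.0 CPM (2.94, SE 0.29, adjusted p = 1.28e-21). The 2 genes that went the other way were cortical patterning factors, *Emx1* at 20.3 and 33.1 CPM against 124 and 107 CPM (-2.13, SE 0.24) and *Lhx2* at 252 and 158 CPM against 445 and 404 CPM (-1.21, SE 0.16). *Zbtb20*, on the regional list, stood at 1997 and 1764 CPM against 1852 and 1637 CPM (0.00, SE 0.16, adjusted p = 1).

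All tested outer RGC genes but 2 were higher in the RGCs (8 of 10), led by *Tnc* at 1057 and 1029 CPM against 20.5 and 35.8 CPM (log2 fold change 5.07, SE 0.18, adjusted p = 2.04e-172). The phosphatase *Ptprz1* stood at 2002 and 2249 CPM against 197 and 245 CPM (3.16, SE 0.17), and *Hopx*, a homeodomain protein used as an outer RGC marker, at 90.2 and 78.5 CPM against 15.6 and 9.18 CPM (2.67, SE 0.29). In no case did the libraries of the 2 classes overlap, but the share of all tested genes without overlap was not counted. The astroglial list had 11 of 16 genes higher and 2 lower, with *Mlc1* at 117 and 121 CPM against 3.24 and 6.42 CPM (4.47, SE 0.31) and *Apoe* at 679 and 711 CPM against 67.9 and 84.9 CPM (3.07, SE 0.15).

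The neurogenic list ran the other way, with 13 of 15 genes lower and none higher. *Neurog2*, the proneural factor that drives RGCs toward IPCs, stood at 38.3 and 11.0 CPM in marker-negative RGCs against 466 and 451 CPM in IPCs (log2 fold change -4.52, SE 0.22, adjusted p = 1.83e-89). It had a UMI in 7.55% and 4.24% of the RGCs, near the 7.39% and 7.17% of excitatory neurons and above the 0.709% and 0.873% of erythroid barcodes. *Gadd45g* stood at 45.1 and 30.3 CPM against 332 and 290 CPM (-3.20, SE 0.20), *Hes6* at 76.6 and 52.4 CPM against 273 and 225 CPM (-2.10, SE 0.19) and *Btg2*, a gene of neurogenic divisions, at 60.9 and 51.0 CPM against 135 and 128 CPM (-1.36, SE 0.20). *Neurod4* had no UMI in the marker-negative RGCs and was at least 3.99-fold and 5.33-fold lower.

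Of 17 Notch pathway genes tested, 8 were higher in the marker-negative RGCs and 4 lower. The receptors *Notch1*, *Notch2* and *Notch3* were higher, with *Notch1* at 119 and 139 CPM against 52.3 and 47.3 CPM (log2 fold change 1.29, SE 0.19, adjusted p = 3.9e-10) and *Notch2* at 239 and 236 CPM against 15.6 and 17.9 CPM (3.70, SE 0.20). The fringe genes, whose products glycosylate Notch, went in opposite directions, with *Lfng* higher at 33.8 and 26.2 CPM against 1.08 and 0 CPM and *Mfng* lower. So did the ligands, with *Jag1* higher at 36.1 and 23.4 CPM against 3.77 and 5.05 CPM and *Dll3* lower at 0 and 2.76 CPM against 18.9 and 21.6 CPM. Growth factor and morphogen genes were higher in 19 of 26 cases and lower in 1. Higher were the BMP targets *Id1* (60.9 and 74.4 CPM against 4.31 and 2.75 CPM, 4.18) and *Id3* (180 and 114 CPM against 5.39 and 6.88 CPM, 4.39) and the FGF targets *Etv5* (42.8 and 45.5 CPM against 4.31 and 3.21 CPM, 3.45) and *Etv4* (20.3 and 20.7 CPM against 0.539 and 0.918 CPM, 4.61), and lower was *Id2*, of the same family as *Id1*, at 228 and 254 CPM against 298 and 325 CPM (-0.48, SE 0.17, adjusted p = 0.0237). Matrix and adhesion genes were higher in 13 of 16 cases and lower in none.

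Cell cycle genes also differed between these classes, although both lacked the same 3 markers. S phase genes were higher in the marker-negative RGCs in 10 of 21 cases and lower in none, with *Mcm3* at 81.2 and 49.6 CPM against 6.47 and 13.8 CPM (log2 fold change 2.47, SE 0.31, adjusted p = 1.09e-13) and *Pcna* at 117 and 97.8 CPM against 48.5 and 56.9 CPM (0.89, SE 0.20, adjusted p = 0.000157). Of the G2 and mitosis list 2 of 18 were called, *Hmgb2* (609 and 663 CPM against 323 and 400 CPM, 0.70) and *Cdk1* (15.8 and 19.3 CPM against 4.85 and 5.51 CPM, 1.64). *Cdkn2d* was lower at 15.8 and 17.9 CPM against 36.7 and 32.6 CPM (-1.12, SE 0.34, adjusted p = 0.00838), which turned to 0.22 with thinned cells, where it was not called. *Dnmt1* stood at 33.4 and 37.2 CPM in IPCs and 46.4 and 50.3 CPM in excitatory neurons, and neither comparison with the 47.3 and 42.7 CPM of the marker-negative RGCs passed the test (0.22, SE 0.26, adjusted p = 0.659, and -0.27, SE 0.23, adjusted p = 0.39).

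Some immediate early genes were higher than in IPCs. *Fos*, *Fosb* and *Jun* were higher of the 11 on the list, with *Jun* at 480 and 237 CPM against 58.2 and 34.9 CPM (log2 fold change 2.79, SE 0.16, adjusted p = 7.53e-62) and *Fos* at 90.2 and 38.6 CPM against 7.01 and 6.42 CPM (3.05, SE 0.36, adjusted p = 2.65e-15). In excitatory neurons *Jun* stood at 39.1 and 35.4 CPM, and 7 of the 11 genes were lower there than in marker-negative RGCs. These genes respond to dissociation of the tissue as well as to signals in it, and the part of dissociation was not tested.

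Against excitatory neurons, defined by *Neurod2* and *Neurod6* and without *Pax6*, the marker-negative RGCs had 2297 of 14672 genes (15.7%) higher and 2535 (17.3%) lower, with a median log2 fold change of -0.14. RGC scaffold genes were higher in 22 of 25 cases and lower in 1, S phase genes higher in 15 of 21, and all 14 neuronal genes tested outside the definition were lower. RGC markers chose one class and *Neurod2* and *Neurod6* the other, so the scaffold and neuronal counts follow in part from the definition. *Tnc* stood at 1057 and 1029 CPM against 6.26 and 6.73 CPM (log2 fold change 7.16, SE 0.17). *Vim* stood at 1858 and 1522 CPM against 42.0 and 54.4 CPM (4.95, SE 0.17), with 53.1 and 48.5 CPM in erythroid barcodes. *Dcx* was lower at 126 and 169 CPM against 594 and 549 CPM (-2.06, SE 0.16). The matrix and adhesion list had 14 of 16 genes higher and none lower.

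The genes followed by the study each had a different order over the classes. *Nlgn1* was highest in excitatory neurons, at 1365 and 1454 CPM, then in marker-negative RGCs at 1127 and 1270 CPM, with marker-positive RGCs at 696 and 776 CPM and IPCs at 733 and 753 CPM. The marker-negative RGCs differed from the IPCs (log2 fold change 0.58, SE 0.16, adjusted p = 0.00279) as they did from marker-positive RGCs, while their difference from excitatory neurons (-0.38, SE 0.16, adjusted p = 0.044) was not called without the library block (adjusted p = 0.0817). Erythroid barcodes held 100 and 91.5 CPM of *Nlgn1*. *Epha4* was highest in IPCs at 527 and 402 CPM, followed by marker-positive RGCs at 409 and 333 CPM, marker-negative RGCs at 356 and 325 CPM and excitatory neurons at 169 and 129 CPM. The marker-negative RGCs were below the IPCs (-0.54, SE 0.14, adjusted p = 0.0018) and above the excitatory neurons (1.07, SE 0.14, adjusted p = 2.32e-12), and their difference from marker-positive RGCs did not pass (-0.15, SE 0.15, adjusted p = 0.702). With thinned cells, which leave fewer counts, *Nlgn1* differed from IPCs by 0.52 (adjusted p = 0.111) and from marker-positive RGCs by 0.62 (adjusted p = 0.398) on the log2 scale, and *Epha4* from IPCs by -0.30 (adjusted p = 0.686), and none of these was called.

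*Efnb2*, the ligand that signals through *Epha4* among other receptors, stood at 101 and 152 CPM in marker-negative RGCs, at 110 and 138 CPM in marker-positive RGCs and at 101 and 123 CPM in IPCs, and neither difference from the marker-negative RGCs passed the test (log2 fold changes 0.03, SE 0.19, adjusted p = 0.984, and 0.10, SE 0.18, adjusted p = 0.774). It was lower than in excitatory neurons, which held 242 and 232 CPM (-1.01, SE 0.16, adjusted p = 1.06e-09). *Sstr2* was highest in IPCs at 103 and 103 CPM, above the marker-negative RGCs at 20.3 and 16.5 CPM (-2.62, SE 0.28, adjusted p = 2.3e-19). *Epha3*, a receptor of A-type ephrins, was likewise lower than in IPCs, at 261 and 303 CPM against 1276 and 1164 CPM (-2.21, SE 0.17), and *Nrg3*, a ligand of ErbB receptors, was higher at 593 and 555 CPM against 181 and 161 CPM (1.64, SE 0.17). In total, 6 of the 23 receiving-side genes were higher than in IPCs and 5 lower, and 6 were higher than in excitatory neurons and 13 lower.

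**Figure D5:**
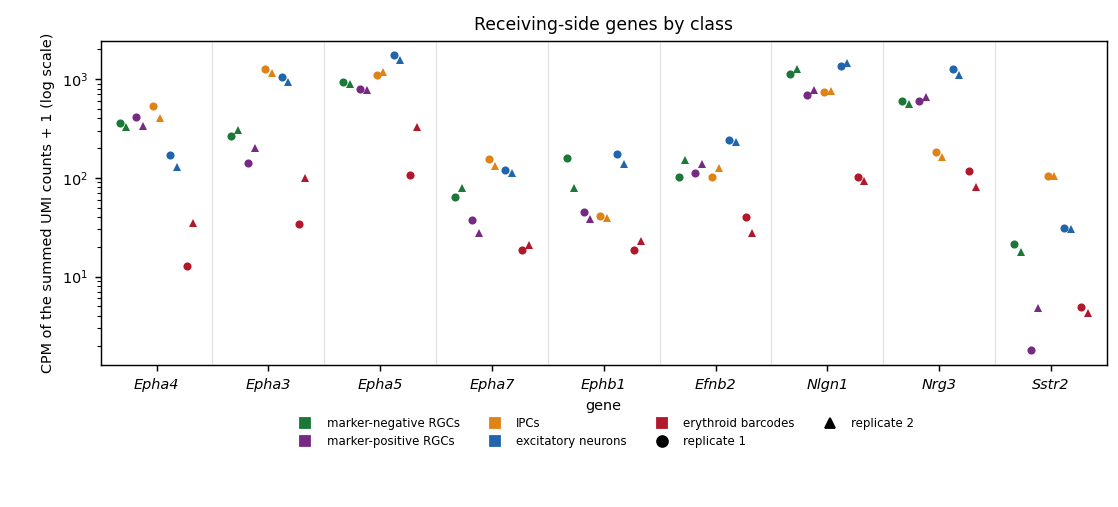
Level of genes of the receiving side in 5 classes of barcodes, as CPM plus 1 on a log axis, with a circle for replicate 1 and a triangle for replicate 2. *Nlgn1* in marker-negative RGCs sits at 1127 and 1270 CPM, above marker-positive RGCs at 696 and 776 CPM.

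Within the marker-negative RGCs, *Hopx* had a UMI in 16 cells of replicate 1 (30.2%) and 23 of replicate 2 (19.5%), and these were deeper, with medians of 10135 and 6293 UMIs, than the *Hopx*-negative cells with 7287 and 4678 UMIs. The *Hopx*-positive cells had higher levels of *Id3* and *Gas1*. Of 14664 genes tested, 28 (0.191%) were called higher and 34 (0.232%) lower, with a median log2 fold change of -0.07, and the count fell to 23 in all without the library block. *Id3*, a target of BMP signalling, stood at 246 and 272 CPM in *Hopx*-positive against 142 and 66.5 CPM in *Hopx*-negative cells (log2 fold change 1.49, SE 0.26) and was found in 8 of 16 and 12 of 23 cells against 11 of 37 and 17 of 95. *Gas1* stood at 289 and 266 CPM against 99.6 and 124 CPM (1.29, SE 0.25), in 12 of 16 and 13 of 23 cells against 15 of 37 and 43 of 95. With thinned cells the median of all genes was -1.55, and *Gas1*, at -2.02, was not called (adjusted p = 0.756).

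None of the other 9 tested outer RGC genes and none of the 16 astroglial genes was called between *Hopx*-positive and *Hopx*-negative cells by edgeR or DESeq2, with 0 and 1 at an unadjusted edgeR p under 0.05. With cells thinned to 1500 UMIs 30 of 31 calls were lower, and *Tnc*, called at -1.60 (adjusted p = 0.0475), lay next to the median of all genes at -1.55. *Gli3* was called at -2.86 (adjusted p = 0.0186). With at least 4 markers *Apoe* was called lower. The 21 S phase genes had a median log2 fold change of 0.85, with none called by either tool and 8 at an unadjusted edgeR p under 0.05, in cells that were also deeper. Several of the higher genes rested on 1 cell. All 22 *Zfp804b* UMIs, 22 of 24 *Ciapin1* UMIs and 20 of 21 *Rspo3* UMIs of the *Hopx*-positive cells of 1 library lay in a single cell. *Neurog2* was found in 4 and 5 cells only. In that split 120 genes were called, 34 higher and 86 lower, with a median log2 fold change of -0.72 over all genes, and with so few cells no gene is named. RGCs of the same rule with *Olig1* numbered 2 and 5, below the minimum of 20 cells in each library, and were not compared.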

How the data were processed

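The 2 libraries of WT cortex (E16.5) were used. The authors counted reads with Cell Ranger (7.0.0 in the submitters' processing notes, 7.1.0 per the file headers) against mm10, and deposited raw UMI counts per gene and barcode for 32285 genes, without normalization, after that program's barcode filter. Gene coordinates of that build are not used here. The 2 libraries held 46398156 and 64324236 UMIs.

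Barcodes with 1500 to 60000 UMIs and under 10% mitochondrial UMIs were sorted into classes by the presence of marker UMIs. IPCs had at least 2 *Eomes* UMIs and no *Gad1*, *Gad2*, *Dlx1*, *Dlx2*, *Olig1* or cycle marker UMI. Excitatory neurons had *Neurod2* and *Neurod6* and none of those genes, *Pax6* or *Eomes*. Doublets were kept, and removed in an alternative (Scrublet in scanpy 1.11.5, the highest scores, with a share that grows with the number of barcodes). Counts were summed per library and class, as cells are not replicates. Genes reaching 10 counts in 2 or more sums were tested in edgeR 4.0.16 (R 4.3.3, TMM, quasi-likelihood, library block, Benjamini-Hochberg, adjusted p under 0.05) in 1 fit of all classes. The block follows from the classes of a library coming from the same cell suspension. The standard error was the fold change divided by the root of the F value. CPM are a class's UMIs scaled to 1000000 in all. The test was run on simulated counts first.

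Genes were named by a rule: the 8 called genes with the largest fold in each direction with at least 20 CPM and the same direction in both libraries, and from each list up to 4 called and 2 uncalled genes, with the genes of the study. Others are named where a count or a statement turns on them, having been chosen after their values were seen. The cells, lists and tests were chosen with earlier results of these data known, so counts over a list are descriptions. Alternatives were DESeq2 1.42.0, no filter, no block, other class limits, doublet removal, thinning and each library alone. Removing the *Olig1*-positive class from the fit was added after seeing the data. Some genes are not reported here.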

Additional observations from a re-analysis of the deposited data

How the results depend on the processing

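Across the alternatives with a test, single genes kept their side of the threshold in 3183 cases and reversed in 19. They were no longer called in 165 and became called in 83. A change of sign counted as reversed only where the gene was called in the main fit or in the alternative. The 3183 cases can therefore hold changes of sign of uncalled genes. The most cases of lost calls came from thinning to 1500 UMIs (62 of 244), which leaves fewer counts. Without the replicate block, 21 of 341 lost their call and none reversed, and with DESeq2, among the 321 with an adjusted p, 14 did. With 1 library left out there is no test, and counts of calls have no such value. For single libraries 391 gene values moved by less than the spread between replicates, 288 moved by more and 3, all of called genes, reversed. That spread comes from the same 2 libraries, and each of them lies within it around their middle. The tally therefore says little about repeatability.

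The calls against marker-positive RGCs, IPCs and excitatory neurons fell from 962, 2845 and 4832 to 59, 492 and 1291 with thinned cells. The 62 calls of the *Hopx* split (28 higher, 34 lower) became 23 without the replicate block, 15 in a fit of the compared classes alone, 119 without doublets (31 higher, 88 lower) and 31 with thinned cells (1 higher, 30 lower), and DESeq2 gave 13 higher and 42 lower. The 120 calls of the *Neurog2* split became 223 with DESeq2 (34 higher, 189 lower), 76 without the filter, 47 in a fit of the compared classes alone, 41 with at least 4 markers and 69 without *Neurod2*- or *Neurod6*-positive RGCs. The share of marker-negative RGCs, 1.02%, became 0.671% without *Neurod2*- or *Neurod6*-positive RGCs and 0.600% with thinned cells, and lay between 0.888% and 1.15% in single libraries.

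Reversed log2 fold changes against marker-positive RGCs were *Thrb* -0.87 and *Jam3* -0.99 with thinned cells, *Neurod1* -1.70 and *Neurod6* -0.13 with at least 4 markers, and *Cdkn1c* 0.29 without doublets. Against IPCs they were *Stmn2* -0.93 without *Neurod2*- or *Neurod6*-positive RGCs and -0.56 with at least 1 *Eomes* UMI, both called (adjusted p = 0.000152 and 0.0131), and with thinned cells *Cdkn2d* 0.22, *Ccnd3* -0.61 and *Dnmt3a* -0.40. In the *Hopx* split with thinned cells, where the median of all genes was -1.55, they were *Tnr* 0.027, *Ahcyl2* 0.035, *Galntl6* -0.16, *Zfp804b* -4.42, *Ciapin1* -6.50, *Rspo3* -0.034, *Gas1* -2.02, *Fabp7* -1.58 and *Tnc* -1.60. *Fabp7* (adjusted p = 5.91e-08) and *Tnc* (adjusted p = 0.0475) were called there, but lay next to that median, so that relative to other genes no reversal was shown. With single libraries left out, values ran from -0.094 to 1.21 for *Jam3* against marker-positive RGCs, from -0.22 to 1.42 for *Cdc20* against excitatory neurons, and from -2.19 to 7.098 for *Rspo2* in the *Hopx* split. The cause of these changes was not tested. The values of marker-negative RGCs rest on 53 and 118 cells, which limits their precision.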
